A study of Mus musculus with 6 samples.

Results

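Of the 24421 rows of the authors' deposited table, 9 genes of the hedgehog pathway were followed: the receptor Ptch1, the signal transducer Smo, the coreceptors Boc, Cdon and Gas1, the transcription factors Gli1, Gli2 and Gli3, and the ligand-binding inhibitor Hhip. They were chosen by gene symbol for their place in the pathway, with earlier results of these data known. All 9 were found in both full tables and all 9 passed the authors' filter on low values. RNA came from the anterior palatal mesenchyme of C57BL/6 mouse embryos at E12.5, freed of epithelium with Dispase II. There were 3 wildtype samples and 3 samples of the genotype Wnt1Cre;Meis2f/f, called the mutant here, in which a Cre recombinase driven by Wnt1 regulatory sequence acts on a floxed allele of Meis2, a TALE homeodomain protein that regulates transcription. Wnt1Cre is active in the neural crest, which forms most of this mesenchyme, so skeletal muscle fibres, endothelium and blood cells in the same tissue, which have other origins, are not its targets. No group carries Wnt1Cre alone, and an effect of the transgene cannot be told apart from that of the Meis2 deletion.

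Hedgehog ligands are secreted proteins that bind Ptch1 with the help of Boc, Cdon and Gas1. Bound Ptch1 no longer restrains Smo, which then acts in the primary cilium so that Gli2 and Gli3 become activators of transcription in place of Gli3 repressor. Ptch1, Gli1 and Hhip are themselves transcribed in response to the signal and are its usual readouts. Ptch1 and Hhip hold the signal back, whereas Gli1 adds to it. In the palate Shh is made by the oral epithelium and is received by the mesenchyme beneath.

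The files give the authors' comparison of the genotypes and no value per library. Their first full table compares 6 libraries, 3 per genotype, and their second compares 4 of the same libraries, 2 per genotype, so the second is no independent replicate. The base mean is the mean over libraries of read counts divided by a library's size factor. Fold changes are given as log2 of mutant over wildtype and were drawn toward 0 by the authors' software, a step called moderation. The sign was read from Meis2, which is lower in the mutant under this reading: its log2 value was -0.28 (SE 0.092, adjusted p 0.0743, DESeq2 Wald test) with 6 libraries and -0.33 (SE 0.093, adjusted p 0.0213) with 4, per the authors' deposited tables. All directions below depend on that reading of the sign. A gene is called where the adjusted p of the authors' DESeq2 test was under 0.05. Nothing in the labels beyond the words biological replicates says how embryos were divided among samples.

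Hhip was the 1 member that was called. Of the 9 members 1 was called higher, 0 were called lower and 8 were not called with 6 libraries, where 1.75% of 14942 tested genes were called higher and 1.16% lower per the authors' deposited table. The counts were the same with 4 libraries, where 1.31% of 14548 tested genes were called higher and 0.99% lower per the authors' deposited table. Among the members 2, Hhip and Gas1, had an unadjusted p under 0.05 with 6 libraries, against 10.5% of tested genes per the authors' deposited table. The median absolute log2 fold change of the 9 members was 0.09, and that of all tested genes was 0.09, per the authors' deposited table. The tissue is a mixture of cells, and in such bulk samples fewer cells of a type and less RNA per cell cannot be told apart.

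**Figure D1:**
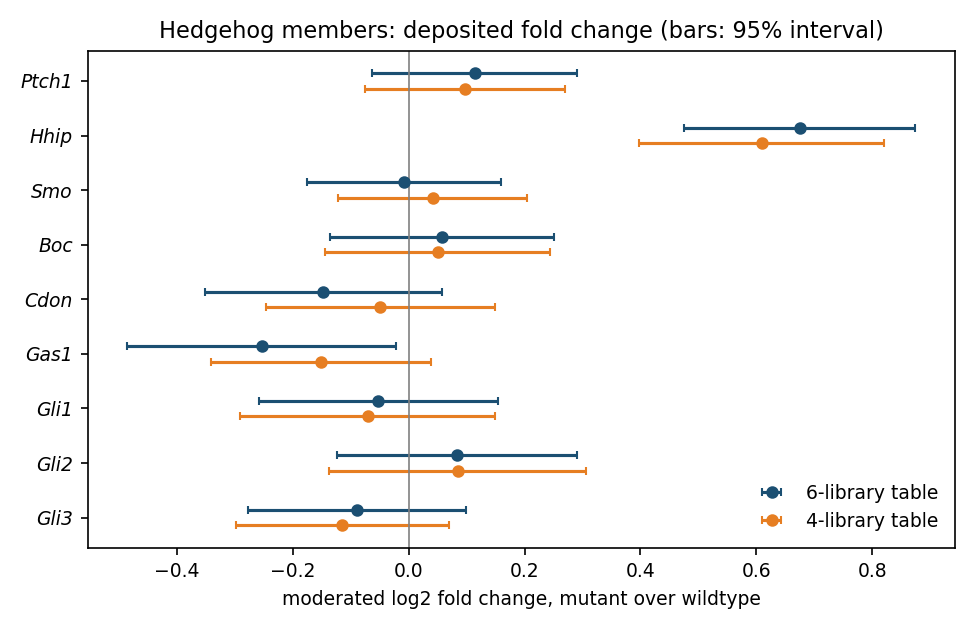
Moderated log2 fold change of mutant over wildtype for the 9 members, with 95% intervals (1.96 SE), in the authors' 6-library table (blue) and 4-library table (orange). The lowest bound of Hhip is 0.40, and the highest bound of any other member is 0.31.

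Levels in each genotype were estimated from both tables together. With the moderation undone, the fold change and the base mean give a mean per genotype, and the difference between the tables gives the level of the 1 library per genotype that the second table leaves out. For each genotype this yields the mean of 2 libraries, called the kept pair, and the level of the third library, all on the size factors of the 6-library table. A pair mean hides how far its 2 libraries lie apart. These estimates were computed here and stand in none of the authors' columns. Among 4044 estimated genes whose base mean was 800 or more, the third library was at a median of 0.966 of its pair in wildtype and 0.962 in the mutant, with the middle 90% between 0.779 and 1.18 in wildtype and between 0.722 and 1.18 in the mutant.

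Hhip, which binds hedgehog ligands at the cell surface and is a target of the signal, lies on chromosome 8, 79965851 to 80058006 on the minus strand (GRCm38, as all gene positions here). In wildtype its estimated level was 605 normalised reads in the kept pair and 627 in the third library. In the mutant the levels were 1001 in the kept pair and 1147 in the third library. Both mutant values lay above both wildtype values, and the third library of each genotype was close to its pair, at 1.04 and 1.15 of it. The mutant was thus at 1.65 times wildtype in the kept pairs and at 1.83 times in the third libraries. The deposited log2 fold change was 0.67 (SE 0.102, adjusted p 8.92e-09, DESeq2 Wald test), or 1.60-fold with a 95% interval of 1.39 to 1.83, per the authors' deposited table. With 4 libraries it was 0.61 (SE 0.108, adjusted p 2.96e-06, DESeq2 Wald test) per the authors' deposited table. With the moderation undone the 6-library difference was 0.78, or 1.71-fold. Only 0.402% of tested genes had a larger absolute Wald score, the fold change over its SE, with 6 libraries, and 0.516% with 4, per the authors' deposited tables. Exons of Gm27820 on the other strand cover 1.93% of the exon bases of Hhip, and no source used here says whether reads were counted by strand.

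**Figure D2:**
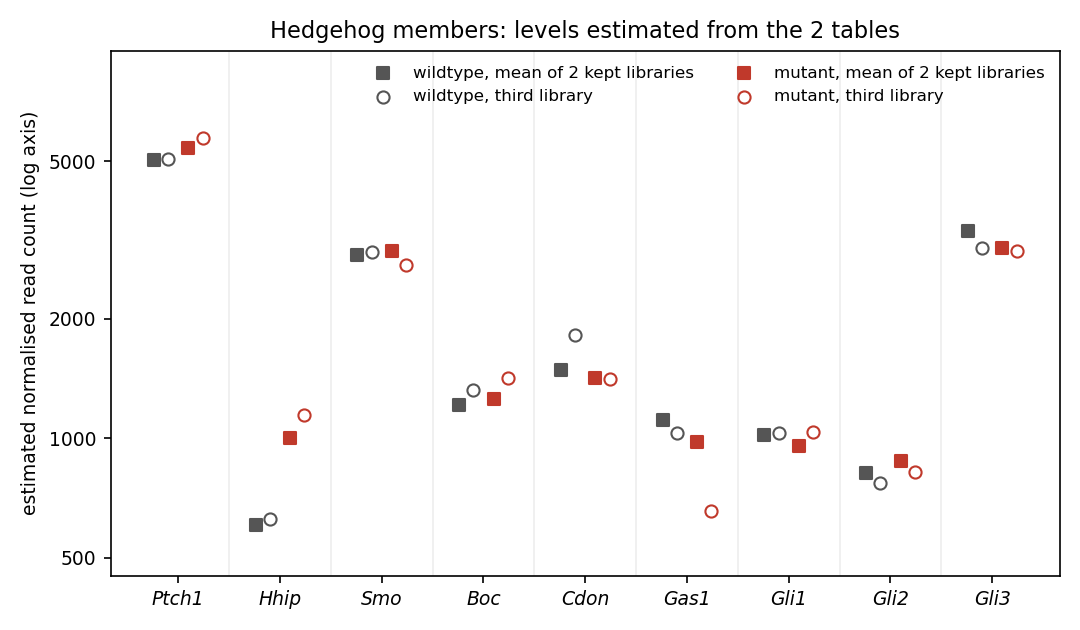
Estimated normalised read count (log axis) of each member in wildtype (grey) and mutant (red), as the mean of the 2 libraries kept in the 4-library table (squares) and as the level of the third library (open circles). Hhip stands at 605 and 627 in wildtype and at 1001 and 1147 in the mutant, and the third mutant library of Gas1 stands apart at 656.

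Ptch1, the receptor and the other inhibitor among the targets, lies on chromosome 13, 63508328 to 63573598 on the minus strand. Its estimated levels were 5049 in the wildtype kept pair and 5065 in the third wildtype library, and 5415 and 5722 in the mutant. The mutant values were the higher by a small amount in both. As deposited, its log2 fold change was 0.11 (SE 0.090, adjusted p 0.762) with 6 libraries and 0.10 (SE 0.088, adjusted p 0.957) with 4, by the DESeq2 Wald test per the authors' deposited tables. Its 95% interval with 6 libraries, from -0.06 to 0.29, does not reach that of Hhip, from 0.47 to 0.87. These intervals come from the same libraries, and the difference between the 2 genes was not tested.

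The stretch just before the start of Hhip is shown because it is the called member, beside that of Ptch1, which answers to the same signal and was not called. Both are the 250 bases before the RefSeq start (GRCm38.p6), written 5′ to 3′ along the gene's strand, chr8:80058009-80058258 on the minus strand for Hhip and chr13:63565736-63565985 on the minus strand for Ptch1. The RefSeq start of Ptch1 lies inside the span given above, so the gene has other starts. Capitals mark CCACCC, the 6-base core of the Gli binding site GACCACCCA, on either strand.
Hhip: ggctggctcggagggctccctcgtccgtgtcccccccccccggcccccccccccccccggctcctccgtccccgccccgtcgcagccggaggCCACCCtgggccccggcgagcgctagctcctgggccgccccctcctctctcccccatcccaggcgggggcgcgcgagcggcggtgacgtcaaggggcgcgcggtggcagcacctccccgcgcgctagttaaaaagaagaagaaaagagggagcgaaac
Ptch1: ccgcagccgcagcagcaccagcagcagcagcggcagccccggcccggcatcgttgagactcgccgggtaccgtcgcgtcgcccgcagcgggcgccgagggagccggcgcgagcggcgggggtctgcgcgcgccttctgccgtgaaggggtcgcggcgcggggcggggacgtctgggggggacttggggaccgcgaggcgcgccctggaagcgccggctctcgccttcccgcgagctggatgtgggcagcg
The Hhip stretch holds the core on the gene's own strand, 158 bases before the start, and the Ptch1 stretch holds none. Both are rich in G and C, at 76.0% and 78.4%. The full site GACCACCCA was found, on both strands, in 0 of the 7 members with a RefSeq entry (all but Gli1 and Boc) and in 0.253% of 32851 promoters of 300 bases (250 before and 50 after a start). The core CCACCC, which lies within the full site, was found in 4 of the 7 (Hhip, Gli2, Gli3 and Smo) and in 31.5% of all promoters. TGACAG, a site bound by Meis proteins, was found in 0 of the 7 and in 19.2% of all. A match of letters is not a bound site, and these windows leave out distant regulatory sequence.

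Gli1, a transcriptional activator and the third target among the members, lies on chromosome 10, 127329882 to 127341974 on the minus strand. Its estimated levels were 1019 in the wildtype kept pair and 1032 in the third wildtype library, and 955 and 1034 in the mutant. The third libraries of the genotypes were at nearly the same level. Its log2 fold change was -0.05 (SE 0.105, adjusted p 0.936), with a 95% interval of -0.26 to 0.15, per the authors' deposited table. Exons of Arhgap9 and Gm47200 on the other strand cover 1.24% and 5.31% of the exon bases of Gli1.

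Gli2, the main activator among the Gli factors, lies on chromosome 1, 118834132 to 119053619 on the minus strand. It was estimated at 818 in the wildtype kept pair and 770 in the third wildtype library, and at 876 and 823 in the mutant. Its mutant over wildtype ratio was 1.07 in the kept pairs and 1.07 in the third libraries. Gli3, the main repressor, lies on chromosome 13, 15463235 to 15730026 on the plus strand. It was estimated at 3330 in the wildtype kept pair and 3014 in the third wildtype library, and at 3028 and 2966 in the mutant. The wildtype pair alone was higher than the rest. Exons of Gm6556 on the other strand cover 1.96% of the exon bases of Gli3. Neither gene was called, with log2 values of 0.08 (SE 0.106, adjusted p 0.891) for Gli2 and -0.09 (SE 0.096, adjusted p 0.853) for Gli3 by the DESeq2 Wald test per the authors' deposited table. With 4 libraries their log2 fold changes were 0.08 and -0.11 per the authors' deposited table.

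Smo, the membrane protein that Ptch1 restrains, lies on chromosome 6, 29735503 to 29761365 on the plus strand. Its estimated levels were 2892 in the wildtype kept pair and 2943 in the third wildtype library, and 2969 and 2732 in the mutant. The kept pairs and the third libraries differed in opposite directions, at mutant over wildtype ratios of 1.03 and 0.928. On the log2 scale its fold change was -0.01 (SE 0.085, adjusted p 0.987) with 6 libraries and 0.04 (SE 0.083, adjusted p 1.00) with 4, by the DESeq2 Wald test per the authors' deposited tables. With 6 libraries, 93.3% of tested genes had a larger absolute Wald score.

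Gas1, a coreceptor anchored to the membrane by a lipid, lies on chromosome 13, 60174405 to 60177365 on the minus strand. Its estimated levels were 1113 in the wildtype kept pair and 1029 in the third wildtype library, and 981 and 656 in the mutant. The third mutant library stood apart, at 0.669 of its pair, below the middle 90% of well expressed genes. The log2 fold change given for it was -0.25 (SE 0.119, unadjusted p 0.0325, adjusted p 0.395) with 6 libraries per the authors' deposited table. It was -0.15 (SE 0.097, unadjusted p 0.117, adjusted p 0.776) with 4 per the authors' deposited table, so that without the third libraries the value was smaller by over 1.5 times. Gas1 was not called in either. Exons of Gm48488 on the other strand cover 19.9% of the exon bases of Gas1.

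Cdon and Boc are related coreceptors of the immunoglobulin superfamily, which also act in muscle differentiation. Cdon lies on chromosome 9, 35421128 to 35507652 on the plus strand. Its estimated levels were 1483 in the wildtype kept pair and 1819 in the third wildtype library, and 1419 and 1413 in the mutant. The third wildtype library was high, at 1.23 of its pair, above the middle 90% of well expressed genes. The deposited log2 fold change of Cdon was -0.15 (SE 0.105, adjusted p 0.719) with 6 libraries and -0.05 (SE 0.101, adjusted p 1.00) with 4, by the DESeq2 Wald test per the authors' deposited tables. Boc lies on chromosome 16, 44485049 to 44558897 on the minus strand. It was estimated at 1210 in the wildtype kept pair and 1327 in the third wildtype library, and at 1253 and 1415 in the mutant. The third library was the higher in both genotypes, at 1.10 and 1.13 of its pair. The deposited log2 fold change of Boc was 0.06 (SE 0.098, adjusted p 0.927) with 6 libraries and 0.05 (SE 0.099, adjusted p 1.00) with 4, by the DESeq2 Wald test per the authors' deposited tables.

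The precision bounds what could have been seen in the 8 members that were not called. The smallest absolute Wald score among called genes was 3.18 per the authors' deposited table. At their SE, these members would have needed a moderated log2 fold change of 0.27 (Smo) to 0.38 (Gas1) to be called. That is 1.21-fold to 1.30-fold on the moderated scale. Undoing the moderation multiplied log2 values by 1.10 (Smo) to 1.24 (Gas1), so the changes needed on that scale were larger. Their 95% intervals ran together from -0.49 (Gas1) to 0.29 (Ptch1 and Gli2) with 6 libraries, so that a change as large as the 0.67 of Hhip lies outside each of them. A moderated change under the limit of its gene, from 0.27 to 0.38, would not have been called.

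**Figure D3:**
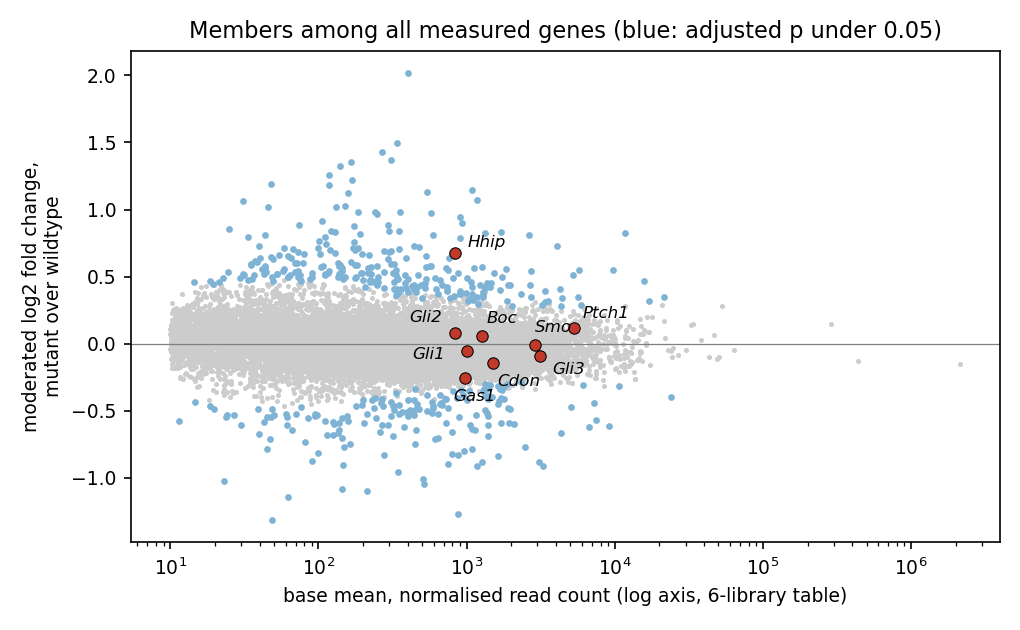
Moderated log2 fold change against base mean (log axis) for all genes that had an adjusted p and a base mean from 10 upward in the 6-library table, with called genes in blue and the 9 members in red. Hhip sits at 0.67 among the called genes, and the other 8 members sit between -0.25 and 0.11.

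Compared per length, the transducer Smo stood highest and Hhip lowest. Some places between changed with the length used, and some differed between genotypes without holding in each library. Base means over 6 libraries of both genotypes were divided by the length of all exons in GENCODE M21 and, as a second measure, by that of the longest coding transcript. Smo stood at 516 per kb of exon and Ptch1 at 373, followed by Gas1 at 331, Gli3 at 325 and Boc at 287. Gli1 (201) and Cdon (195) came next, then Gli2 (121), and Hhip was lowest at 91.6 per kb of exon. The repressor Gli3 was thus above the activator Gli2. By the longest coding transcript Smo was at 767 per kb, Ptch1 at 684, Gli3 at 381 and Gas1 at 331, so Gli3 and Gas1 changed places, and the other 7 kept theirs. Taken apart by genotype with the moderation undone, per kb of exon, Gas1 stood above Ptch1 in wildtype, at 366 against 356, and below it in the mutant, at 295 against 389. The wildtype order held in the kept pair, whereas in the third wildtype library Gas1 was the lower. Cdon stood above Gli1 in wildtype (207 against 205) and below it in the mutant (184 against 196), and in the mutant Gas1 also stood below Gli3 (314). The order of Cdon and Gli1 in wildtype, and of Gas1 and Gli3 in the mutant, rested on the third library. The kept pairs had the reverse order. By the longest coding transcript the order was the same in both genotypes. Hhip was lowest in both, at 67.5 per kb of exon in wildtype and 116 in the mutant. In the values over both genotypes, Gas1 and Gli3 differed by a factor of 1.02 and Gli1 and Cdon by 1.03 per kb of exon. In wildtype the third library of Gas1, Gli3 and Cdon differed from its pair by more than that. No value per library gives a spread for this order, and the transcripts in use here are not known.

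**Figure D4:**
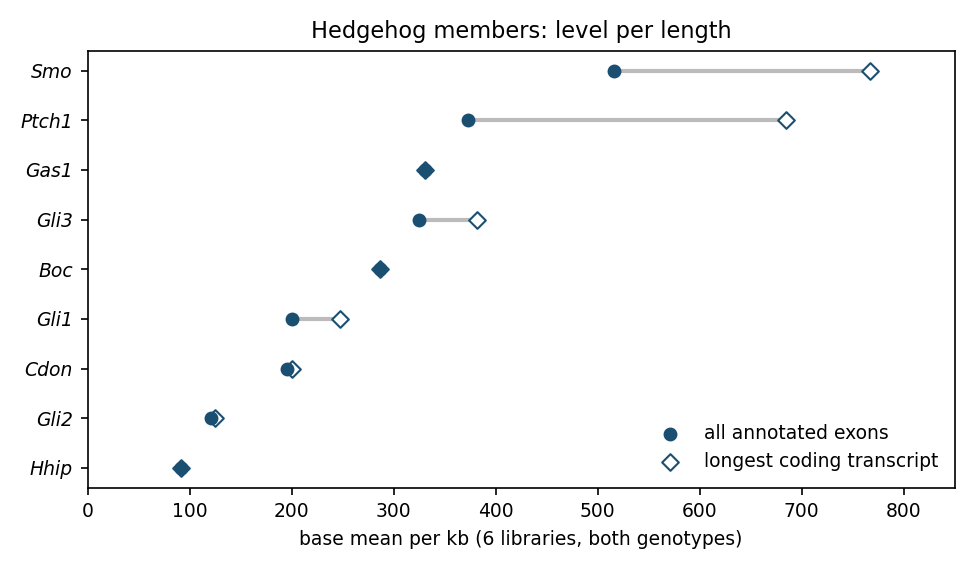
Base mean per kb in the 6-library table for each member, by the length of all annotated exons (filled circles) and of the longest coding transcript (open diamonds). In these values over both genotypes Smo and Ptch1 are highest by both lengths and Hhip is lowest at 91.6. Per kb of exon in wildtype alone Gas1 (366) stands above Ptch1 (356), though not in the third wildtype library.

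Other genes of the pathway were taken from 5 lists by role. These lists were chosen with earlier results of these data known, so their share of called genes cannot measure an excess in the pathway. Of 65 listed genes 64 had a row and 61 had a base mean of at least 10. Of these 61, 4 were called higher, 3 lower and 54 not called, in each of the authors' deposited tables, and the same 7 genes were called in both. All genes tested were called in 2.9% with 6 libraries and 2.3% with 4 per the authors' deposited tables. The median log2 fold change of the 61 was 0.02, and that of all tested genes was -0.01, per the authors' deposited table.

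Among genes for ligands and their release, Scube1 and Scube3 rose and no ligand gene was called. Of 6 measured, 2 rose and 0 fell, with a median log2 fold change of 0.23, per the authors' deposited table. Among all tested genes 1.75% were called higher and 1.16% lower. Scube1 and Scube3 encode secreted proteins of a family that aids release of lipid-bearing hedgehog ligands. Scube1 rose by 0.79 (SE 0.110, adjusted p 2.30e-10, base mean 908) and Scube3 by 0.41 (SE 0.122, adjusted p 0.0317, base mean 443) on the log2 scale, by the DESeq2 Wald test per the authors' deposited table. With 4 libraries the log2 fold changes were 0.73 for Scube1 and 0.43 for Scube3, both called, per the authors' deposited table. Scube2, of the same family and named after its value was seen, had a base mean of 12.6 and was not called, with log2 values of -0.14 (adjusted p 0.804) with 6 libraries and -0.05 (adjusted p 1.00) with 4, per the authors' deposited tables. Shh, the ligand of the oral epithelium, named here after its value was seen, had a base mean of 40.2 and a log2 fold change of 0.35 (unadjusted p 0.0190, adjusted p 0.298), and 0.22 (adjusted p 0.623) with 4 libraries, per the authors' deposited tables. Beside this value, 12 of 12 epithelial markers were measured in spite of the Dispase step, at base means of 90.4 to 242, with 0 called (DESeq2 Wald test; 0 at an unadjusted p under 0.05) and a median of 0.02 on the log2 scale, per the authors' deposited table. The part of remaining epithelium in the level of Shh was not tested. The ligand genes Ihh and Dhh were under a base mean of 10.

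The other receptors, the transducers and the cilium genes held no called gene. Of 6 measured receptors and surface modifiers 0 were called (DESeq2 Wald test; 0 at an unadjusted p under 0.05) per the authors' deposited table. Of 18 signal transduction genes, from Sufu and Kif7, which hold Gli proteins in check, to kinases and ubiquitin ligase parts, 0 were called (DESeq2 Wald test; 0 at an unadjusted p under 0.05), and their log2 fold changes ran from -0.12 to 0.20 per the authors' deposited table. Btrc, which encodes a subunit of the ligase that acts on Gli proteins, had the largest score, at 0.18 (SE 0.095, adjusted p 0.499), per the authors' deposited table. Of 12 genes of transport in the cilium 0 were called (DESeq2 Wald test), 1 had an unadjusted p under 0.05, and they ran from -0.14 to 0.26 per the authors' deposited table. That 1 was Dync2h1, the motor of transport toward the cilium base, at 0.22 (SE 0.094, adjusted p 0.287), per the authors' deposited table.

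Among mesenchymal genes known to respond to hedgehog signals in some tissue, most of which answer to other signals too, changes went both ways. Of 19 measured, 2 rose, 3 fell and 14 were not called, and 11 had an unadjusted p under 0.05, per the authors' deposited table. Among all tested genes 1.75% were called higher, 1.16% were called lower and 10.5% had an unadjusted p under 0.05 (DESeq2 Wald test). Foxd1, a forkhead factor of facial mesenchyme, rose by 1.14 (SE 0.112, adjusted p 6.04e-21), and Sfrp1, a secreted Wnt inhibitor, by 0.44 (SE 0.086, adjusted p 4.58e-05), both as log2 values, per the authors' deposited table. Igf1, a growth factor, fell by 0.68 (SE 0.110, adjusted p 8.50e-08), and the T-box genes Tbx3 and Tbx2 fell by 0.54 and 0.40 on the log2 scale per the authors' deposited table. All 5 were also called, in the same direction, with 4 libraries, at 1.11, 0.39, -0.56, -0.58 and -0.40 in the order given, per the authors' deposited table. The forkhead genes Foxf1, Foxf2 and Foxl1, named after their values were seen because they are the usual readouts of Shh in palatal mesenchyme, stood at log2 fold changes of 0.11 (adjusted p 0.865), -0.18 (0.630) and 0.28 (0.284; DESeq2 Wald test) per the authors' deposited table. None of these 3 was called with 4 libraries, where the values were 0.13, -0.16 and 0.24 per the authors' deposited table.

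**Figure D5:**
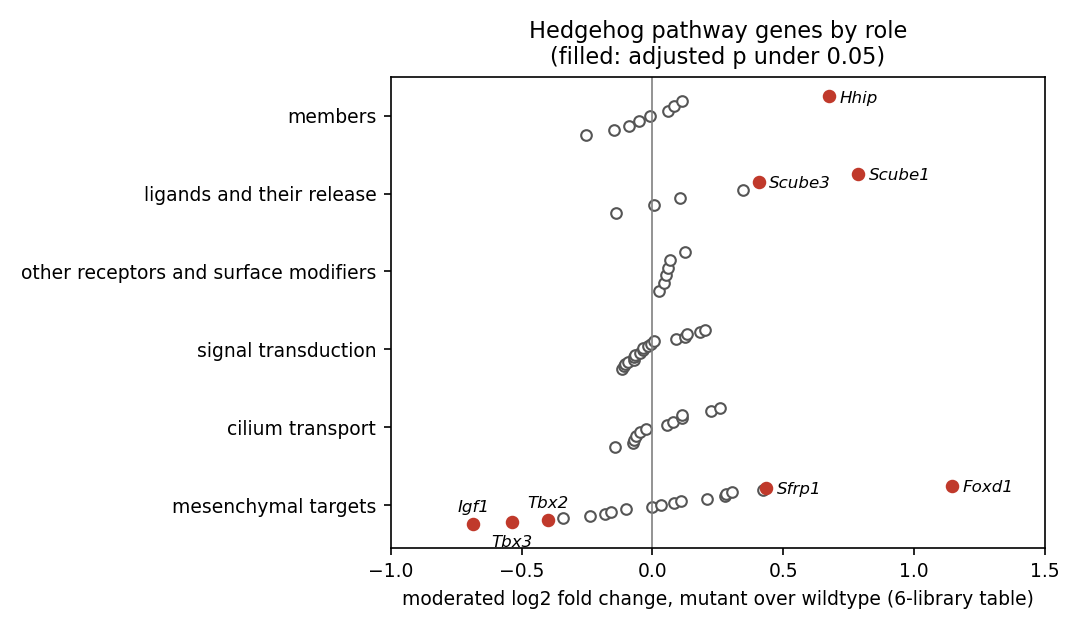
Moderated log2 fold change in the 6-library table for the 9 members and the measured genes of the 5 pathway lists, each point a gene, with called genes filled in red and named. The called genes are Hhip, Scube1, Scube3, Foxd1 and Sfrp1 above 0 and Igf1, Tbx3 and Tbx2 below 0.

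The labelled tissue was checked against markers. For the counts below, 1.75% of all tested genes were called higher and 1.16% lower with 6 libraries, and 1.31% and 0.99% with 4. An unadjusted p under 0.05 (DESeq2 Wald test) was held by 10.5% of tested genes with 6 libraries and 9.4% with 4. All 12 markers of palatal mesenchyme were measured, at base means of 48.7 to 50618, and 0 were at 0, per the authors' deposited table. Of these 12 markers 9 lay below 0, 3 were called lower, 1 was called higher and 8 had an unadjusted p under 0.05, with a median log2 value of -0.22, per the authors' deposited table. Those called lower, named after their values were seen, were Shox2 (-0.90), Twist1 (-0.45) and Prrx1 (-0.31), transcription factors of the mesenchyme, and the one called higher was Pax9 (0.46), likewise named and a transcription factor of palatal mesenchyme, by log2 fold change per the authors' deposited table. With 4 libraries 10 lay below 0, 3 were called lower and 2 higher, and the median was -0.19, per the authors' deposited table. Markers of other cells moved with genotype as well, and all these values stand beside those of Hhip and the coreceptors. Of 16 measured skeletal muscle markers 16 lay above 0, 8 were called higher and 0 lower, the median log2 value was 0.46, and base means ran from 11.5 to 9640, per the authors' deposited table. With 4 libraries the muscle median was 0.28 with 3 called higher, per the authors' deposited table. Of 9 measured neuron markers 9 lay below 0 and 6 were called lower, with a median of -0.51, and 9 of 9 Schwann and glial markers lay below 0 with 1 called and a median of -0.22, per the authors' deposited table. With 4 libraries the neuron median was -0.22, with 2 called, and the Schwann and glial median -0.15, with 0 called (DESeq2 Wald test; 3 at an unadjusted p under 0.05), per the authors' deposited table. Of 10 macrophage markers 3 were called higher, with a median of 0.25, and of 9 endothelial markers 0 were called (DESeq2 Wald test; 0 at an unadjusted p under 0.05), with a median of 0.03, per the authors' deposited table. None of these lists had a marker at 0. Summed levels per genotype were not analysed here, for want of values per library. The part of the cell makeup in the values of the members was not tested.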

How the data were processed

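Total RNA (RNeasy Micro Plus) was converted to cDNA and amplified before TruSeq v2 library preparation, per the labels' protocols. HISAT2, featureCounts and DESeq2, with GRCm38 and mm10, are named in the submitters' processing notes; the sources used here give no versions, settings or model terms. The base mean is a signal, deposited by the authors as a mean of normalised counts. The fold change and SE are on the log2 scale, as deposited by the authors. The Wald score and the p-value with its Benjamini-Hochberg adjustment were deposited by the authors. Values per library were not analysed here, so total counts are unknown. The remaining deposited table, with a part of the genes, was not used.

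The design text describes tables of 1 wildtype and 1 mutant library each. Genes with 1 read in all give a base mean fixed by that library's size factor. The first table held 6 such levels (3 per genotype) and the second 4, each from the same genes (tolerance 4e-06). Size factors ran from 0.775 to 1.44, and those of the kept libraries were 1.03 to 1.04 times larger with 6 libraries than with 4. Moderation was undone by treating it as a normal prior, whose SD of 0.301 (6 libraries) and 0.287 (4) is fixed by the largest SE. A genotype's mean then follows from the base mean and fold change, and the left-out library from 3 times the 6-library mean less 2 times the 4-library mean. The steps were tested on data simulated with the same kind of prior, whose SD was known. Such data cannot show whether the deposited values follow that prior. This estimation was chosen after the data were examined.

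No model was fitted. Calls are the authors' adjusted p under 0.05, since tables hold comparisons only. The members and lists were chosen with earlier results of these data known. A gene counts as measured from a base mean of 10 upward. Named genes were the 9 members, Meis2, each called gene of the pathway lists and, in a list with none, the largest absolute Wald score; exceptions are said where they stand. A gene that this rule names is not reported here. Genes of like pattern could not be sought without values per library. Adrbk1 stands for Grk2 and Tmem8c for Mymk, by RefSeq synonyms; Mosmo was not analysed here. Gene positions and lengths are from GENCODE M21, promoters from RefSeq. Alternatives were the 4-library table, adjustment over other gene sets, a threshold of 0.1, centring and undone moderation. Python 3.11.15, pandas 2.3.3 and numpy 2.4.6 were used.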

Additional observations from a re-analysis of the deposited data

How the results depend on the processing

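Hhip was the called member, alone of the 9, in the 4-library table, with p adjusted over every gene with a p or over genes at a base mean of 100 or more, and at a threshold of 0.1. With the moderation undone its log2 difference was 0.78 in place of 0.67, by more than its SE. Smo, near 0 and not called, turned from -0.01 to 0.041 in the 4-library table, and to 0.005 when fold changes were centred on the median of measured genes (-0.01). The other 7 members kept their direction under these settings. The pathway count was 7 with 4 libraries and with adjustment over every gene. It was 8 at a base mean of 100 or more and at a threshold of 0.1, the added gene being Foxc2 (log2 fold change 0.42, adjusted p 0.0507 per the authors' deposited table). Meis2 gained its call with 4 libraries. No paired analysis was possible because the tables hold comparisons of genotypes and no column per library. For the same reason single libraries could not be left out in turn, other than through the 4-library table. Fold changes of genes with few reads, such as Shh, are limited by depth and are drawn toward 0 by moderation.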
